A study of Mus musculus with 20 samples.

Results

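The nuclear genes for subunits and named assembly factors of the 5 respiratory chain complexes were examined in bone marrow and kidney of mice given oxaliplatin. Members were all genes whose symbol begins with Nduf, Uqcr or Atp5, or with Cox4i, Cox5, Cox6, Cox7 or Cox8, together with Sdha, Sdhb, Sdhc and Sdhd. The muscle isoform Cox6a2 and symbols carrying -ps were left out. The rule found 97 of the 55486 genes counted: 47 of complex I, 4 of complex II, 8 of complex III, 20 of complex IV and 18 of complex V. No measured value entered the rule. The prefixes also took in 4 processed pseudogenes whose symbols lack -ps (Ndufa11b, Ndufb4c, Ndufs6b and Cox6c2), which are included in the counts by complex. None of the 4 passed in either tissue after oxaliplatin.

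The study used C57BL/6 mice of both sexes, 10 weeks old at the start. The vehicle (ctrl) was 5% dextrose, and the treated mice (oxa) received 10 mg/kg oxaliplatin, a platinum drug that crosslinks DNA, by intraperitoneal injection in that vehicle over 8 weeks. Tissue was taken 6 days after dosing ended, marrow from the long bones of the hind leg and kidney as whole organ. Each tissue and treatment had 5 libraries, 20 in all, each of 1 mouse. The labels give neither the sex of a mouse nor whether equal numbers in both tissues mark the same animal. Library totals ran from 30660153 to 41140527 counts in marrow and from 24393007 to 30925430 in kidney.

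The respiratory chain sits in the inner mitochondrial membrane. Complex I (NADH dehydrogenase) and complex II (succinate dehydrogenase) pass electrons to ubiquinone, complex III passes them to cytochrome c, and complex IV (cytochrome c oxidase) passes them to oxygen. Complexes I, III and IV pump protons, and complex V (ATP synthase) uses the gradient to make ATP. Most subunits are encoded in the nucleus, and a few at the core of complexes I, III, IV and V by mitochondrial DNA. Several complex IV subunits come as a common form and a form restricted to some tissues: Cox6b2 is best known from testis, Cox4i2 and Ndufa4l2 from lung and from cells at low oxygen, and Cox7a1 and Cox8b from heart and skeletal muscle. The kidney tubule is rich in mitochondria.

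In vehicle mice nearly the whole set was more abundant in kidney than in marrow. Of 94 members tested, 91 (96.8%) were higher in kidney, beside 38.8% of the 24321 genes tested, and the median difference was 2.48 on the log2 scale. The members took 2.06 to 2.27% of all counts in vehicle kidney and 0.469 to 0.553% in vehicle marrow. The kidney RNA was purified with a column kit and the marrow RNA with Trizol and a column, so tissue and extraction cannot be told apart. Scaling by library totals alone moved the median of all genes by -0.42, their calls from 9426 higher and 10209 lower to 7669 and 12354, and the median of the members to 2.06, and the difference between both medians was 2.6 under either scaling.

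**Figure D1:**
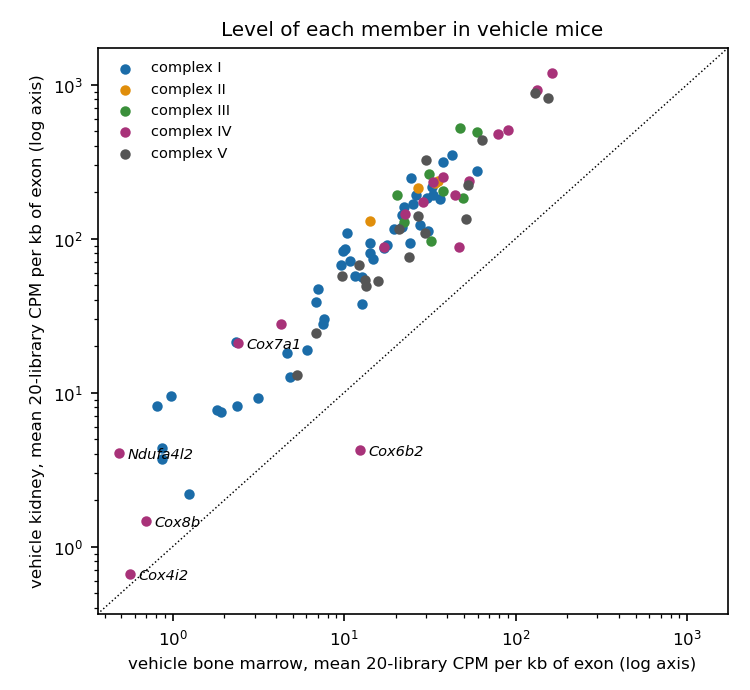
Mean level of each member in vehicle mice, as CPM (read counts scaled to a common library size, here across the 20 libraries) divided by exon length in kb, in bone marrow (x axis) and kidney (y axis), both on log axes, coloured by complex. All 85 common subunits and assembly factors lie above the dotted line of equal level, and Cox6b2 lies below it.

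The order of the levels was similar at the top in both tissues. Per kb of exon, Cox8a, a small common subunit of complex IV, was highest in kidney at 1183 ± 153 CPM per kb (SD, n = 5), and highest in marrow at 162 ± 13. Cox6a1, also of complex IV, followed in kidney at 919 ± 94.3, and the catalytic beta subunit of ATP synthase, Atp5b, at 875 ± 30.7. Over mice Cox8a ran from 948 to 1331, Cox6a1 from 792 to 1049 and Atp5b from 831 to 910, so that Cox6a1 overlapped both neighbours while Cox8a and Atp5b were apart. In marrow the alpha subunit Atp5a1 came second at 154 ± 15.1, within the spread of Cox8a. The restricted isoforms were near the bottom in kidney: Cox6b2 at 4.23 ± 0.541, Ndufa4l2 at 4.07 ± 0.715 and Cox4i2 at 0.665 ± 0.192 CPM per kb.

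Cox6b2 was the 1 member lower in vehicle kidney than in vehicle marrow (42% of all genes tested were lower, 38.3% past 1.5-fold), by 1.55 on the log2 scale (SE 0.19, adjusted p = 1.01e-07, edgeR), where it stood at 12.4 ± 0.380 CPM per kb. Cox4i2 and Cox8b did not pass in this comparison (log2 differences of 0.24 and 1.08, adjusted p = 0.527 and 0.127). The largest kidney excess was that of Uqcr10, a small subunit of complex III, at 11-fold (log2 3.46, SE 0.162, adjusted p = 2.63e-15).

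After oxaliplatin 35 of 85 common subunits and assembly factors were lower in kidney and 50 did not pass, while 4 restricted isoforms of complex IV were higher, 3 of them past 1.5-fold (7.68% of all genes tested). Of 93 members tested in kidney, 35 (37.6%) were lower and 4 (4.30%) were higher, where 15% of the 19293 genes tested were lower and 14.4% were higher. The changes in these 85 were small: 1 of them, the assembly factor Ndufaf1, passed the 1.5-fold change used by the study. By that measure 3.81% of all genes tested were lower. The median over the members was -0.22 on the log2 scale against 0.025 over all genes. All 85 common subunits and assembly factors had negative estimates, but scaling by library totals alone left 68 negative and 17 positive. Since these are bulk samples, fewer cells of a type and less RNA per cell cannot be told apart. The groups did not overlap for 17 members with every oxa mouse below every ctrl mouse, beside 11% of all genes tested, and for 2 with every oxa mouse above, beside 9.69%.

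**Figure D2:**
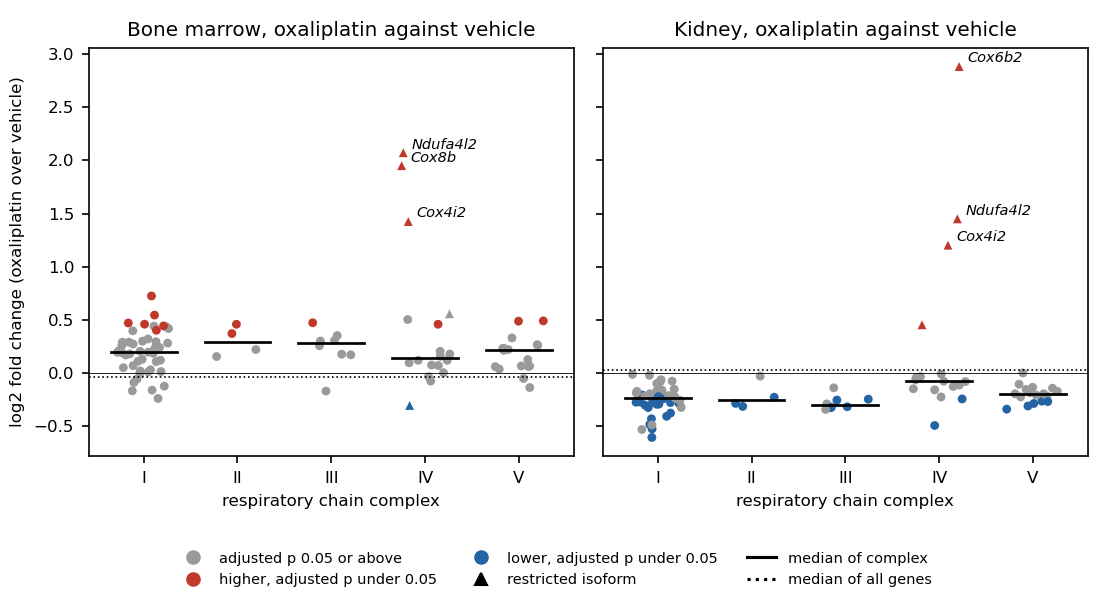
Log2 fold change of each tested member (y axis) by complex (x axis) in bone marrow and kidney, from 5 oxaliplatin and 5 vehicle mice each; triangles are restricted isoforms, black bars the median of a complex and the dotted line the median of all genes. In kidney the common subunits sit below 0 while Cox6b2, Ndufa4l2, Cox4i2 and Cox7a1 sit above it; in marrow the median of each complex lies between 0.14 and 0.29.

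In the kidney the counts differed by complex. Complex I had 21 of 47 members lower, complex II 3 of 4, complex III 4 of 8, complex IV 2 of 17 and complex V 5 of 17. No test compared the complexes with each other. The medians of the log2 fold changes were -0.24, -0.26, -0.31, -0.08 and -0.20 in the same order. The 17 of complex IV include 4 restricted isoforms that rose, and the median of its 11 common subunits was -0.12.

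Complex I contributed both its core and its assembly factors. Of the 7 nuclear core subunits, which carry the flavin and the iron-sulfur clusters, 6 fell. Ndufv1, which binds NADH, read 443, 412, 443, 420 and 466 CPM in the ctrl mice and 372, 407, 396, 310 and 319 in the oxa mice, without overlap (log2 fold change -0.28, SE 0.0816, adjusted p = 0.0166). Ndufs1, the largest iron-sulfur subunit, also fell without overlap, by 0.25 on the log2 scale (adjusted p = 0.00772). Of the 8 Ndufaf assembly factors, which help build the complex and are not part of it, 6 fell.

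Ndufaf1, which acts early in membrane arm assembly, had the largest fall of all members. Its CPM were 14.2, 16.9, 16.6, 17.3 and 17.8 in the ctrl mice and 10.7, 11.6, 11.2, 11.4 and 9.27 in the oxa mice. The groups were separate, with a log2 fold change of -0.61 (SE 0.0957, adjusted p = 0.000187). Ndufaf4, another assembly factor, went from 26.1 ± 2.62 to 18.1 ± 3.56 CPM (log2 fold change -0.53, adjusted p = 0.00365), again without overlap. Among the 29 accessory subunits 9 fell, with Ndufa1 at -0.41 and Ndufb5 at -0.38.

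Complex II fell in 3 of its 4 subunits. Sdhb, the iron-sulfur subunit, read 399, 377, 437, 419 and 439 CPM in the ctrl mice and 346, 357, 374, 296 and 290 in the oxa mice, which did not overlap (log2 fold change -0.32, SE 0.0805, adjusted p = 0.00685). The membrane anchors Sdhc and Sdhd fell by 0.29 and 0.23 on the log2 scale (adjusted p = 0.0147 and 0.0353). Sdha, the flavoprotein that oxidises succinate, had an estimate of -0.03 (adjusted p = 0.735) with overlapping groups.

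All 3 core subunits of complex III fell. Uqcrc2 went from 281, 285, 292, 275 and 285 CPM to 210, 237, 238, 238 and 206 (log2 fold change -0.33, SE 0.0648, adjusted p = 0.00115), the Rieske iron-sulfur protein Uqcrfs1 fell by 0.32 (adjusted p = 0.0195) and Uqcrc1 by 0.26 (adjusted p = 0.0256). Uqcrh, the hinge protein near cytochrome c, fell by 0.25 (adjusted p = 0.0141), while the other 4 accessory subunits did not pass.

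In complex V 2 of 5 head subunits, 2 of 4 stalk subunits and 1 of 5 subunits of the membrane part were lower. Atp5b read 3317, 3072, 3280, 3168 and 3287 CPM in the ctrl mice and 2669, 2972, 2903, 2445 and 2405 in the oxa mice (log2 fold change -0.27, SE 0.0789, adjusted p = 0.0164). These groups did not overlap. The rotor subunit Atp5c1 fell by 0.31 (adjusted p = 0.00143) and the stalk subunits Atp5pb and Atp5j by 0.34 and 0.27 (adjusted p = 0.00348 and 0.0066). Atp5j2 of the membrane part fell by 0.29 (adjusted p = 0.0238), while Atp5a1 had an estimate of -0.11 (adjusted p = 0.263). None of the 3 c ring genes passed, and Atp5g1 had an estimate near 0 (adjusted p = 0.996).

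Of the 11 common complex IV subunits, 1 fell: Ndufa4, the last subunit to join the complex. Its CPM were 261, 236, 306, 292 and 309 in the ctrl mice and 200, 231, 244, 175 and 146 in the oxa mice, with 1 oxa mouse inside the ctrl range (log2 fold change -0.50, SE 0.126, adjusted p = 0.00943). Cox7a2l, counted apart from these 11, fell by 0.25 (adjusted p = 0.0103). Cox4i1, Cox5a, Cox6a1, Cox7a2 and Cox8a had estimates between -0.16 and -0.04 and did not pass. Cox6b1 was at the border, with an estimate of -0.23 and adjusted p = 0.0539 in edgeR and 0.0477 in DESeq2.

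The restricted isoforms went the other way. Cox6b2 rose from 3.25, 4.65, 4.28, 3.86 and 4.33 CPM in the ctrl kidneys to 48.0, 23.6, 23.7, 18.7 and 36.5 in the oxa kidneys. Every oxa mouse exceeded every ctrl mouse, and the fitted rise was 7.39-fold (log2 fold change 2.88, SE 0.27, adjusted p = 4.73e-05). Behind it were 87 to 122 reads in a ctrl library and 534 to 1338 in an oxa library.

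Ndufa4l2, a paralog of Ndufa4 whose partner fell, read 3.47, 4.38, 4.75, 3.06 and 3.73 CPM in ctrl and 13.3, 7.44, 11.7, 7.86 and 12.7 in oxa kidney. The groups were separate and the rise was 2.73-fold (log2 fold change 1.45, SE 0.18, adjusted p = 2.59e-05). Cox4i2 rose 2.30-fold, from 0.456 ± 0.129 to 1.06 ± 0.284 CPM (adjusted p = 0.00839), on 7 to 39 reads a library and with 1 oxa mouse inside the ctrl range. Cox7a1 rose 1.37-fold, from 9.80 ± 1.21 to 13.4 ± 2.14 CPM (adjusted p = 0.0107), also with overlap. Cox8b had too few reads to be tested in kidney (0 to 25 a library), and Cox7b2 and Cox8c had at most 2 reads in any library of either tissue. A second gene identifier for Atp5o had none. A count of 3 corresponds to 0.0668 to 0.0975 CPM in marrow and 0.0900 to 0.130 CPM in kidney, the most that 0 reads allow, from counting error only.

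**Figure D3:**
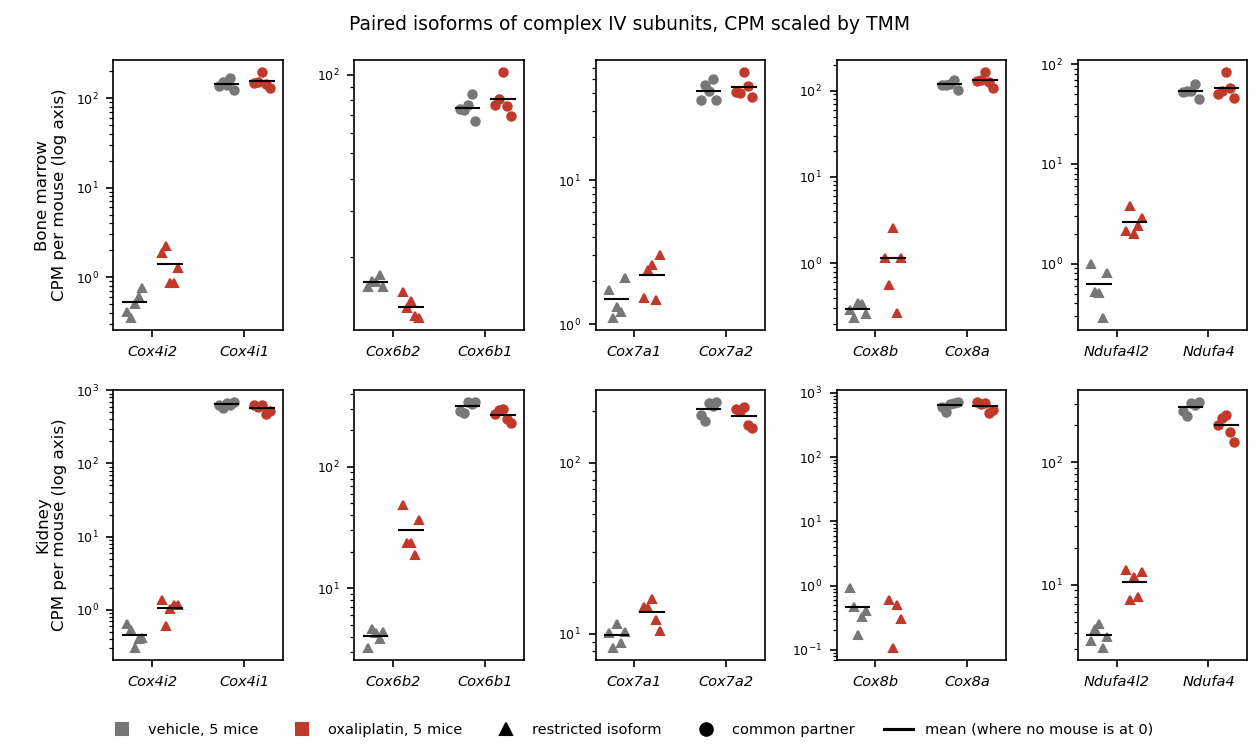
CPM of 5 restricted isoforms (triangles) and their common partners (circles) in each mouse, on log axes, for vehicle (grey) and oxaliplatin (red) mice in bone marrow (top) and kidney (bottom); bars are means. Cox6b2 moved up in kidney from 4.07 to 30.1 CPM on average and down in marrow from 16.1 to 13.

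As a share of both partners per kb of exon, Cox6b2 went from 0.827 ± 0.139% of Cox6b2 plus Cox6b1 in ctrl kidney to 6.73 ± 2.7% in oxa kidney. Ndufa4l2 went from 1.73 ± 0.382% to 6.51 ± 2.32% of the Ndufa4 pair, Cox4i2 from 0.142 ± 0.0466% to 0.370 ± 0.112% and Cox7a1 from 7.74 ± 0.726% to 11.1 ± 0.520%. All 4 shares differed with p = 0.00794 in a two-sided exact permutation test (n = 5 against 5, the smallest value it allows; 0.0132 adjusted over the 10 shares tested). The common partner remained the main form in every case, since the largest of these shares was 11.8%. The Cox8b share in kidney did not pass in the permutation test (adjusted p = 0.508). In marrow Ndufa4l2 rose from 1.5 to 5.67%, Cox4i2 from 0.724 to 1.83% and Cox8b from 0.426 to 1.42%. There Cox6b2 fell from 12.1 to 9.37%. These 4 marrow shares passed in the same test (adjusted p = 0.0132 to 0.0496), and that of Cox7a1 did not (0.273).

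RefSeq promoters (GRCm38.p6, 250 bases before to 50 after the transcript start) were found for 77 of the 97 members, with the Atp5o promoter counted for both identifiers of that gene. Among those without an entry were Ndufa2, Ndufb9, Ndufaf6, Ndufs1, Ndufa11b, Ndufb4c, Ndufs6b, Sdhc, Uqcrb, Uqcrq, Uqcrc2, Cox4i1, Cox6c, Cox6c2, Cox4i2, Cox8c, Ndufa4l2, Atp5a1 and Atp5mpl. Both strands were searched for 5 motifs of factors known to act on respiratory genes: NRF1 (GCGCA and GCGC with any 1 base between them), the ETS family with GABPA (CCGGAAG), YY1 (AAGATGGC), SP1 (GGGCGG) and the estrogen related receptors (ERR, TCAAGGTCA). The NRF1 letters stood in 26% of 73 common members and 4.6% of all 32851 listed promoters, the ETS letters in 24.7% and 8.86%, YY1 in 13.7% and 2.75%, SP1 in 45.2% and 35.7% and ERR in 2.74% and 0.423%. The repeated Atp5o promoter holds an NRF1 match and so enters that share for each identifier. The 4 restricted isoforms with an entry were Cox6b2, Cox7a1, Cox7b2 and Cox8b. None of these held the NRF1, ETS, YY1 or ERR letters, and 2 held SP1 (Cox6b2 and Cox7b2). Of the isoforms that rose in kidney, Cox6b2 and Cox7a1 are among them, while Ndufa4l2 and Cox4i2 had no entry. CG pairs numbered 20 in the median common member, 8.5 in the median restricted isoform and 7 over all promoters. Matches of different motifs overlapped in 1 member.

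The promoters of 2 isoform pairs and of 2 members with opposite responses in both tissues are printed as examples. Capitals mark every motif match, on either strand. Cox6b1 (chr7:30626065-30626364, minus strand) and Cox7a2 (chr9:79759804-79760103, minus strand) are the common forms, and Cox6b2 (chr7:4753045-4753344, minus strand) and Cox7a1 (chr7:30183921-30184220, plus strand) rose in kidney. Ndufaf4 (chr4:24897833-24898132, plus strand) and Sdhd (chr9:50603800-50604099, minus strand) rose in marrow and fell in kidney.
Cox6b1: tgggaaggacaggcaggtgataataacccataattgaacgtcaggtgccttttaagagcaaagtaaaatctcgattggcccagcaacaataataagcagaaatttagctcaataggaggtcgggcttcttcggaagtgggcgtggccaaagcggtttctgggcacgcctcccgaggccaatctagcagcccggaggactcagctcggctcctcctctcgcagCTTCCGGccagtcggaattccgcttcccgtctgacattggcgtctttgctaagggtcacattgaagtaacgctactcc
Cox6b2: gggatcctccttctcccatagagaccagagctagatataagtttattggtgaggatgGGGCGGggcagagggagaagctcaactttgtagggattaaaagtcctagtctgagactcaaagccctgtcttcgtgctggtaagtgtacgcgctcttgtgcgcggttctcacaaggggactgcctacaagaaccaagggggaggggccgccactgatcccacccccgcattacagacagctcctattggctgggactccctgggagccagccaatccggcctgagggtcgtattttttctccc
Cox7a2: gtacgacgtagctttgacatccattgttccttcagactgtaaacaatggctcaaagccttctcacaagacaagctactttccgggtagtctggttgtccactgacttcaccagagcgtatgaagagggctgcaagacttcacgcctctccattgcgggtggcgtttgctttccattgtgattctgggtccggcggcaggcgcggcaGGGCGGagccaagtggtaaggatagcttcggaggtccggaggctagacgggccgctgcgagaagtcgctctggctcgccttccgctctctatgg
Cox7a1: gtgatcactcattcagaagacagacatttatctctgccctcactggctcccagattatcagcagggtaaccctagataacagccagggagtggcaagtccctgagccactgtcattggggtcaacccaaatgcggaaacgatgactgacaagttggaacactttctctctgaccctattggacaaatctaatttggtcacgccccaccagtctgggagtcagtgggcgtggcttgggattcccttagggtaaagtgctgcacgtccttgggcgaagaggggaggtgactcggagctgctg
Ndufaf4: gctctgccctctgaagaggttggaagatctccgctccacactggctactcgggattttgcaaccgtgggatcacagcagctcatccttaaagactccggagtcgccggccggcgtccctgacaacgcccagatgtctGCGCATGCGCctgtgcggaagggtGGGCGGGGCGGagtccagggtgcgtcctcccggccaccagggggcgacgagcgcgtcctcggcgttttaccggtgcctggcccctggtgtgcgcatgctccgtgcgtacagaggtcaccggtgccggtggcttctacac
Sdhd: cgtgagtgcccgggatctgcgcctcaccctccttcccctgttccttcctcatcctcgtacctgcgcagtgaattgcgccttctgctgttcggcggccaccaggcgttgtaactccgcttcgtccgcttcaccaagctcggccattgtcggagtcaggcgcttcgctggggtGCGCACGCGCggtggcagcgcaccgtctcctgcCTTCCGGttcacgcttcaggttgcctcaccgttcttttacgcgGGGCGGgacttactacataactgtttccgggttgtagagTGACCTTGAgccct
Cox6b1 holds 1 ETS match 28 bases before the start, and Cox7a2 1 SP1 match and no other. Cox6b2, like Cox7a2, holds 1 SP1 match alone, 193 bases before the start, and Cox7a1 none of the 5 motifs. Ndufaf4 holds a palindromic NRF1 match, read on both strands, and 2 overlapping SP1 matches. Sdhd holds 1 match each of NRF1, ETS, SP1 and ERR. A match is a string of letters and not a measured binding site.

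In bone marrow the share of members that were higher was near that of all genes, and the share that were lower was below it. Of 94 members tested, 15 (16%) were higher and 1 (1.06%) was lower after oxaliplatin, where 16.3% of the 22363 genes tested were higher and 16.8% were lower (33.1% in either direction). Past 1.5-fold 4 members were higher, beside 11.6% of all genes. The median over the members was 0.20 on the log2 scale against -0.038 over all genes, and 81 of the 94 estimates were positive. In 6 members every oxa mouse was above every ctrl mouse and in 1 every oxa mouse was below, beside 11.4% and 13.5% of all genes tested. Scaling by library totals alone gave 47 higher members and a median of 0.35, and moved the median of all marrow genes by 0.15 and their calls from 3650 higher and 3763 lower to 5372 and 2709.

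One marrow library stood above the rest. The median deviation of the members from the ctrl mean was 0.08, 0.14, 0.56, 0.12 and -0.04 (log2) in oxa mice 1 to 5, and -0.030, -0.0025, -0.0045, 0.20 and -0.16 in ctrl mice 1 to 5. Without oxa mouse 3 the count was 12 higher and 2 lower (16.6 and 17.8% of all genes), and the median 0.088. Without ctrl mouse 1, 3 or 5 it was 8 higher each. There 13.5, 13.7 and 13.7% of all genes were higher, against 16.3% with every library. Oxa mice 2 and 3 also had the lowest share of counts from mitochondrially encoded mRNA (0.214 and 0.170%, against 0.587 to 0.764% in the other 8 marrow libraries), and without both 7 members were higher and 1 lower, with a median of 0.061. In that fit 14.7% of all genes were higher and 15.9% lower.

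**Figure D4:**
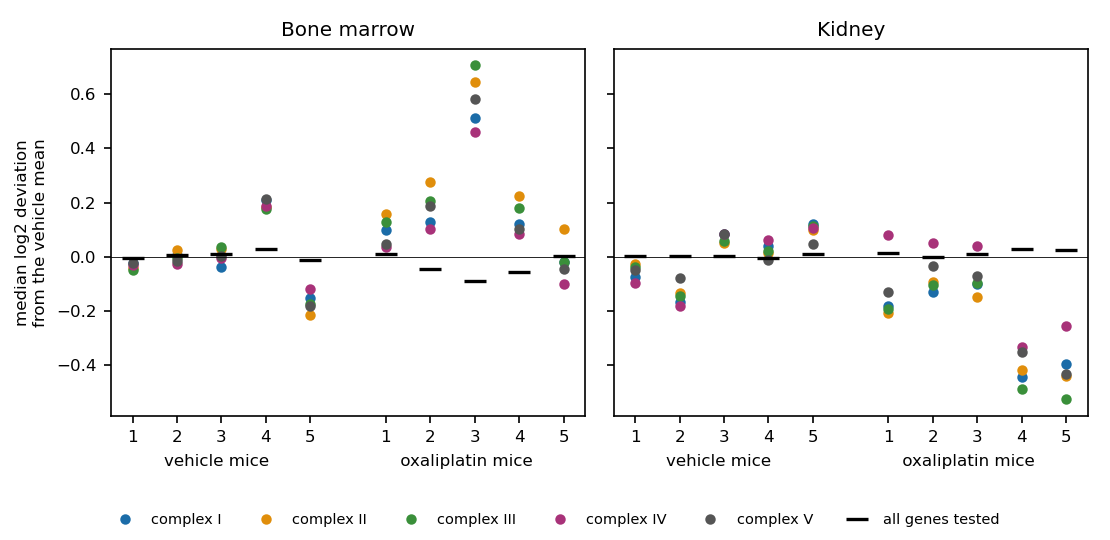
Median log2 deviation of the members of each complex from the vehicle mean (y axis) in each mouse (x axis), with all genes tested as black dashes. Marrow oxaliplatin mouse 3 stands above the others in all 5 complexes, at 0.46 to 0.71, and kidney oxaliplatin mice 4 and 5 lie lowest, at -0.26 to -0.52.

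Among marrow complex I genes the assembly factor Ndufaf4 had the largest rise. Its CPM were 6.90, 7.62, 7.72, 9.26 and 9.65 in ctrl and 8.96, 13.6, 21.7, 14.5 and 9.14 in oxa mice, so that 2 oxa mice lay inside the ctrl range (log2 fold change 0.72, SE 0.226, adjusted p = 0.0255). Ndufv3, an accessory subunit beside the NADH site, went from 43.4 ± 4.25 to 59.0 ± 5.24 CPM (log2 fold change 0.44, SE 0.0944, adjusted p = 0.00278), and Ndufb6 from 8.04 ± 1.25 to 11.7 ± 2.30 (adjusted p = 0.0197). The core subunits Ndufs1 and Ndufv1 had estimates of 0.03 and near 0 and did not pass.

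Of the other complexes, Sdhd rose by 0.46 and Sdhc by 0.37 on the log2 scale (adjusted p = 0.0233 and 0.0338). Uqcr10 rose by 0.47 (adjusted p = 0.0128). The c ring genes Atp5g1 and Atp5g3, which encode the same mature protein, both rose by 0.49 (adjusted p = 0.0437 and 0.0209). Cox5a, a common subunit of complex IV, read 54.1, 53.4, 53.6, 63.3 and 53.2 CPM in ctrl and 68.4, 74.4, 100, 72.1 and 65.8 in oxa mice, with no overlap (log2 fold change 0.46, SE 0.116, adjusted p = 0.00828). The calls of Ndufaf4, Ndufb6, Sdhc, Sdhd, Atp5g1 and Atp5g3 were each lost when some single library was left out, with adjusted p up to 0.104.

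The restricted isoforms gave the largest marrow changes. Ndufa4l2 read 0.981, 0.524, 0.504, 0.285 and 0.812 CPM in ctrl and 2.10, 3.79, 1.98, 2.36 and 2.86 in oxa mice. The groups did not overlap and the rise was 4.21-fold (log2 fold change 2.07, SE 0.331, adjusted p = 0.000334), on 10 to 31 reads in a ctrl library and 73 to 121 in an oxa library. Cox4i2 rose 2.68-fold, from 0.522 ± 0.157 to 1.41 ± 0.606 CPM (adjusted p = 0.00699), with no overlap. Cox8b rose 3.87-fold (adjusted p = 0.011), from 0.233 to 0.347 CPM in ctrl mice to 1.15, 0.564, 2.56, 0.267 and 1.16 in oxa mice.

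Cox6b2 moved the other way in marrow, from 15.3, 16.2, 16.1, 17.2 and 15.5 CPM to 14.8, 12.8, 13.6, 11.9 and 11.7. The groups were separate and the fall was 0.31 on the log2 scale (SE 0.102, adjusted p = 0.0338). This call was lost in DESeq2 (adjusted p = 0.0656) and under other scalings, where the adjusted p reached 0.219. It was also lost without any 1 ctrl mouse and without oxa mouse 2, 4 or 5 (adjusted p up to 0.119, edgeR). Cox7a1 had an estimate of 0.56 that did not pass (adjusted p = 0.145).

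Markers of several cell types changed as well, where 16.3% of all genes tested in marrow were higher and 16.8% lower. In marrow the summed CPM of 12 skeletal muscle markers was 15.5 to 120 in ctrl mice and 439, 377, 896, 51.0 and 409 in oxa mice, 6 of 10 tested being higher. Among the oxa mice, mouse 3 was highest and mouse 4 lowest in both this sum and Cox8b, while Ndufa4l2 was lowest in mouse 3. Of 12 white adipocyte markers 11 were higher, with sums of 458 to 581 in ctrl and 1163 to 4278 CPM in oxa marrow, and of 10 pericyte and vascular smooth muscle markers 5 were higher, from 178 to 204 up to 257 to 414 CPM. No marker of these 3 lists was at 0 in all marrow libraries. All 12 late erythroid markers fell (33180 to 56950 against 4365 to 11010 CPM), and the neutrophil sum was 10170 and 12390 CPM in oxa mice 3 and 4 against 20660 to 29630 in the other 8. Of 12 B lineage markers 9 were lower (379 to 675 against 106 to 187.5 CPM), and of 12 proliferation genes 11 (5084 to 6421 against 2033 to 3577). Of 8 endothelial markers 6 were higher (351 to 445 against 502 to 855), and of 8 macrophage and leukocyte markers 4 (3869 to 4810 against 2305 to 5045). The part of these cells in the members' values was not tested.

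In kidney 9 of 10 pericyte and vascular smooth muscle markers were higher, with sums of 190 to 224 CPM in ctrl and 371 to 709 in oxa mice. Of 12 proximal tubule markers 6 were lower and 2 higher, and their sum was 33910 to 39060 CPM in ctrl and 19430 to 27040 in oxa mice. The members' medians in oxa mice 1 to 5 were -0.14, -0.08, -0.07, -0.41 and -0.39, while the tubule sums were 19430, 27040, 26760, 24490 and 20670. Other marker lists moved as well, where 14.4% of all genes tested in kidney were higher and 15% lower. The summed CPM of 8 loop of Henle and distal tubule markers, of which 2 were higher, was 5153 to 5990 in ctrl and 6141 to 6807 in oxa mice. Of 8 endothelial markers 6 were higher (528 to 571 against 661 to 906 CPM), of 10 tested proliferation genes 8 (62.6 to 68.9 against 82.0 to 101.5), of 10 tested white adipocyte markers 5 (432 to 515 against 516 to 902) and of 6 tested injury markers 2 (496 to 566 against 705 to 794). Of 8 macrophage and leukocyte markers 4 were lower and 1 higher (227 to 299.5 against 98.9 to 198). The part of these cells in the result was not tested. In oxa mice 1, 2 and 3 the complex IV median was 0.08, 0.05 and 0.04, while that of complex I was -0.18, -0.13 and -0.10. The complex IV median takes in the 4 restricted isoforms that rose in kidney. No median by mouse was taken of its common subunits alone.

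The kidney count rested on several libraries. It was 22 and 21 lower without ctrl mice 3 and 5, and 23 and 21 without oxa mice 4 and 5. Calls over all genes fell too, from 15% lower to 11.8, 11.6, 13.3 and 11.6% in the same order. Scaling by library totals alone left 12 lower, and moved the median of all kidney genes by 0.13 and their calls from 2780 higher and 2899 lower to 4642 and 1573. On that scaling the members lay 0.248 below that median as against 0.246 in the scaling used here. Cox6b2, Ndufa4l2, Cox4i2 and Cox7a1 passed as higher under library totals too, with 4 members higher whichever library was left out. Among the members chosen by the naming rule given below, leaving out single libraries lost the kidney calls of Sdhd (adjusted p up to 0.104, edgeR), Uqcrc1 (0.0753), Ndufv3 (0.0649), Uqcrfs1 (0.0624) and Ndufv1 (0.0528). Atp5j and Atp5j2, which that rule did not choose, were not looked at in this way.

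The tissues were also compared directly, by testing the marrow response minus the kidney response in a fit of all 20 libraries. The difference was positive for 44 of 94 members (46.8%) and negative for 1 (1.06%), where 17% of the 24321 genes tested were positive and 13.1% negative. The median difference over the members was 0.49 on the log2 scale. Per complex, 24 of 47, 3 of 4, 7 of 8, 3 of 18 and 7 of 17 were positive from complex I to V. The 3 of complex IV include Cox8b, which had too few reads to be tested in kidney and entered through its marrow level. Without restricted isoforms and pseudogenes 43 of 85 members were positive. Leaving out marrow oxa mouse 3 or kidney oxa mouse 5 gave 32 positive members, and leaving out marrow oxa mice 2 and 3 gave 21. Over all genes 15.8, 14.9 and 13.3% were positive in these fits.

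**Figure D5:**
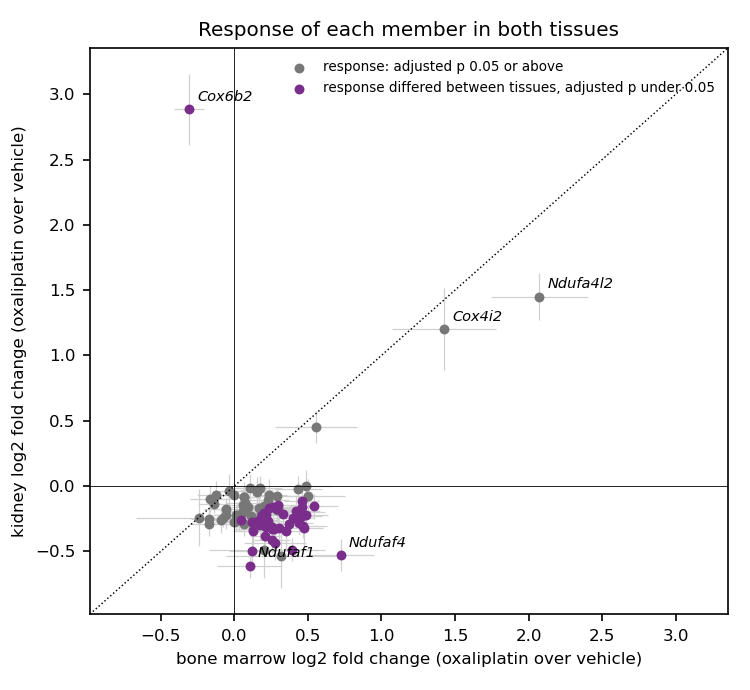
Log2 fold change of each member in bone marrow (x axis) and kidney (y axis), with standard errors in grey; purple points differed between the tissues at adjusted p under 0.05 and the dotted line marks equal response. Of the 93 members tested in both, 77 lie right of 0 in marrow and below 0 in kidney, and Cox6b2 lies alone at the upper left.

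The negative member was Cox6b2, whose response was 3.13 lower in marrow than in kidney on the log2 scale (SE 0.262, adjusted p = 1.09e-08). Ndufv3 (0.78, SE 0.132, adjusted p = 0.000108), Ndufb5 (0.65), Ndufaf4 (1.32) and Ndufa1 (0.72) followed. In all, 6 of 93 members passed as higher in marrow and lower in kidney: Ndufaf4, Ndufc2, Ndufs3, Ndufv3, Sdhc and Sdhd. The share of all genes with such paired calls was not counted. Leaving out some single library lost the marrow calls of Ndufaf4, Sdhc and Sdhd and the kidney calls of Sdhd and Ndufv3. Ndufc2 and Ndufs3 were not looked at in this way. Cox4i2 and Ndufa4l2 were higher in both, and for neither was a difference between the tissues detectable (0.27, SE 0.462, adjusted p = 0.713, and 0.68, SE 0.364, adjusted p = 0.171).

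In kidney, where 15% of all genes tested were lower and 14.4% higher, lists of related mitochondrial genes gave the following counts. Of 42 tested assembly factors outside the rule 18 were lower (median -0.22), led by Acad9, a complex I assembly factor, at -0.59 (adjusted p = 3.04e-05), Ecsit at -0.51 and Cox15 at -0.38. Of 18 citric acid cycle genes 12 were lower (Idh3b -0.34, Dld -0.35, Suclg1 -0.28), and of 77 mitochondrial ribosomal proteins 46 were lower (Mrpl44 -0.48, Mrpl18 -0.53, Mrpl50 -0.42). Of the 13 subunits encoded by mitochondrial DNA 9 were lower, with mt-Atp6 at -0.47, mt-Co3 at -0.50 and mt-Co2 at -0.40. Their summed CPM overlapped, at 35910 to 41990 in ctrl and 30150 to 39220 in oxa mice. As a share of all counts they took 3.17, 3.525, 3.415, 4.247 and 3.249% in oxa mice 1 to 5, against 3.55 to 3.855% in ctrl mice. Oxa mouse 4 thus had the highest share, while the median of the members in that mouse was -0.41. Of 13 carriers, without the member Ndufa4l2 that this list also held, 4 were lower and 1 higher, with the electron transfer flavoprotein genes Etfa and Etfdh at -0.40 and -0.37.

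In marrow 16.3% of all genes tested were higher and 16.8% lower, and the shares of assembly factors and ribosomal proteins that were higher were near that background. Of 42 assembly factors 7 were higher and 3 lower (Nubpl 0.70, Cox17 -0.47, Coa5 0.47), of the citric acid cycle 6 were higher (Idh2 0.46, Pdha1 0.56, Sucla2 0.49) and of 77 ribosomal proteins 11 were higher, with Mrps6 at 2.25, Mrpl17 at 0.74 and Mrpl36 at 0.68. None of the 13 mitochondrially encoded subunits passed in edgeR (1 had an unadjusted p under 0.05) or in DESeq2, although all 13 estimates were negative. Their summed CPM was 2053 and 1629 in oxa mice 2 and 3, against 6722, 6882 and 5687 in oxa mice 1, 4 and 5 and 6181 to 6771 in ctrl mice. The genes mt-Atp8, mt-Co3 and mt-Co1 had estimates of -0.66, -0.59 and -0.60, with adjusted p = 0.112, 0.173 and 0.241. Of the 13 carriers 7 were higher and 1 lower: Slc25a4, the muscle type ADP/ATP carrier, rose from 42.2 ± 4.66 to 107 ± 28.3 CPM, Ucp2 fell from 1660 ± 220 to 817 ± 119.

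Regulators of mitochondrial biogenesis passed in both directions in each tissue. Ppargc1a, a coactivator of respiratory genes, rose in kidney from 87.2 ± 4.93 to 123 ± 10.5 CPM, with no overlap (log2 fold change 0.49, SE 0.0694, adjusted p = 6.87e-05). Esrrb rose by 0.35 and Twnk, the helicase of mitochondrial DNA, fell by 0.30 in kidney, and in all 2 of 21 were higher and 5 lower. Over all genes tested in kidney, 14.4% were higher and 15% lower. In marrow Nrf1, nuclear respiratory factor 1, fell from 118 ± 2.81 to 70.5 ± 3.75 CPM (log2 fold change -0.75, adjusted p = 6.25e-06), while Hif1a and Epas1 of the oxygen response rose by 0.64 and 0.84. Marrow Ppargc1a was low, at 0.566 ± 0.238 and 1.09 ± 0.246 CPM (adjusted p = 0.0459). Of 19 regulators tested in marrow 4 were higher and 3 lower, beside 16.3 and 16.8% of all genes tested.

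Exons of 29 members overlap a gene on the other strand and those of 5 a gene on the same strand, and it is not stated whether strand was used in counting. Ndufa4l2 shares 32 exon bases with Shmt2, 2.92% of its length. Atp5o shares bases with its second identifier and that identifier with Donson. Genes with processed pseudogenes elsewhere in the genome, as many of this set have, are uncertain to the extent that reads were assigned to copies.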

How the data were processed

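RNA-seq was made from ribosomal RNA depleted total RNA of 20 libraries. The authors deposited 1 table of raw counts per tissue, with whole-number reads per gene. The submitters' processing notes name bcl2fastq, STAR, Subread featureCounts and Salmon, while the study's methods name STAR within Partek Flow with Ensembl annotation, and which of these made the counts and whether strand was used are not given in the sources used here. The labels and the methods also name different library kits. Of 55774 lines a table, 287 repeats of an identifier and 1 line lacking a value were dropped.

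Counts were filtered with filterByExpr (minimum count 10), scaled by TMM and tested in each tissue over all genes with edgeR 4.0.16 (R 4.3.3; robust quasi-likelihood test, Benjamini-Hochberg adjustment, threshold 0.05). The response in marrow against kidney and vehicle kidney against vehicle marrow came from 1 fit of the 20 libraries. The CPM given by mouse use the TMM scaling within a tissue. All adjusted p-values are edgeR's unless DESeq2 (1.42.0) is named. Isoform shares were compared by exact permutation test (scipy 1.17.1), and medians by mouse used a pseudocount of 0.5. Total counts set the precision, and p-values cover the spread between mice. No pair of replicates agreed within sampling noise (lowest chi-square per degree of freedom 7.51). The fits were tested on simulated data. The condition for passing was changed after a first run missed it in marrow, and then no longer asked for recovery of the smaller planted changes.

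Members, gene lists and tests were chosen with earlier results of these data known. Members named were the 2 with the largest rise and the 2 with the largest fall among those that passed in each tissue and complex (mean log2 CPM of at least 1), the 5 with the smallest adjusted p of the difference between tissues, fixed core subunits and isoform pairs, and members too low to test. Of each related list the 3 genes with the smallest adjusted p, and Ppargc1a, were named. The result of 1 member that this rule names is not reported here. The first listed start was used for the 5 members with more than 1. In all, 31 alternative fits were tried.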

Additional observations from a re-analysis of the deposited data

Results flagged for a closer look

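Among 148 sets of 5 mice looked at, 6 held a mouse far from the other 4. This is no more than chance gives, at about 1 in 20. Marrow oxa mouse 3 was the highest in 4 of them: Cox5a at 100 CPM, Uqcrc2 at 109, Uqcrfs1 at 89.6 and Uqcrc1 at 273. Marrow ctrl mouse 4 was the highest in 2, with Cox5a at 63.3 and Ndufv3 at 50.7 CPM.

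For 21 of the 37 named members the response to oxaliplatin differed between marrow and kidney in the test of the difference itself (edgeR, log2 marrow minus kidney). In complex I these were Ndufaf4 (1.32), Ndufaf1 (0.787), Ndufv3 (0.779), Ndufb6 (0.762), Ndufa1 (0.725) and Ndufb5 (0.649). In complex II they were Sdhd (0.754), Sdhc (0.724) and Sdhb (0.598), and in complex III Uqcr10 (0.856), Uqcrfs1 (0.691), Uqcrc2 (0.651) and Uqcrc1 (0.491). In complex IV they were Cox8b (2.62), Ndufa4 (0.681), Cox5a (0.636) and Cox6b2 (-3.13), and in complex V Atp5g3 (0.776), Atp5c1 (0.638), Atp5b (0.567) and Atp5pb (0.532). In kidney Cox8b was below the filter on low counts (0 to 25 reads a library) and entered this test through its marrow level. Its call was lost without marrow oxa mouse 3 (adjusted p = 0.0766, edgeR), kidney ctrl mouse 1 (0.0813) or kidney oxa mouse 3 (0.0501), and with the replicate block (0.133). Leaving out single mice also lost the calls of Uqcrc1 (adjusted p up to 0.0635) and Atp5b (0.0742). Without marrow oxa mice 2 and 3 together those 3 did not pass (0.0828, 0.14 and 0.191), nor did Cox5a (0.0769), Ndufaf1 (0.153), Uqcrfs1 (0.0811), Ndufa4 (0.11) and Atp5pb (0.104).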

How the results depend on the processing

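In marrow, scaling by library totals alone gave 47 members higher and a median of 0.35, and leaving out oxa mice 2 and 3 (added after seeing the data) gave 7 and 0.061. No member (0) was lower in marrow under DESeq2, RLE size factors, library totals, without hemoglobin genes, without the filter or with the replicate block. In kidney, library totals gave 12 lower and a median of -0.090, and lost the calls of Sdhc (edgeR adjusted p = 0.086), Atp5b (0.104), Uqcrh (0.151), Cox7a2l (0.176) and Ndufs1 (0.179) among others. A covariate of Y-linked genes gave 27 lower, a median of -0.14 and a distance to the median of all genes of -0.154, against -0.246 without it. The difference between the tissues fell to 21 positive members and a median of 0.28 without marrow oxa mice 2 and 3. The vehicle median was 2.06 under library totals and 2.27 with at least 10 counts in every sample. Leaving out 1 mouse at a time gave 8 to 21 higher and 0 to 2 lower members in marrow (median 0.088 to 0.29), 21 to 43 lower in kidney (-0.27 to -0.17) and 32 to 58 positive differences between tissues (0.35 to 0.59). Over all genes the shares were 13.5 to 18.4% higher and 14 to 17.8% lower in marrow. They were 11.6 to 15% lower in kidney and 14.9 to 19.4% positive between tissues. The causes were not tested.

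More estimates turned sign than are listed here. Of the 85 common subunits and assembly factors, 28 were negative in marrow without oxa mice 2 and 3, against 11 with all libraries. In kidney 17 were positive with library totals and 11 with the Y-linked covariate, against 0 in the main fit. Only the 37 named members were looked at singly. Among them, the estimates that turned sign were those of members that did not pass in that comparison. In marrow these were Ndufv1 (0.044 in DESeq2, 0.041 with RLE, 0.15 with library totals, 0.031 without hemoglobin genes, 4.05e-05 without the filter, 0.0061 with a covariate of Y-linked genes), Cox6a1 (0.010, 0.0068 and 0.12 in the first 3 of these) and Cox7a2l (0.072 with library totals). Without marrow oxa mice 2 and 3 they were Ndufaf1 (-0.25), Ndufa4 (-0.069), Atp5pb (-0.044), Ndufs1 (-0.12), Cox4i1 (-0.041), Cox6b1 (-0.011) and Cox7a2 (-0.019), and between the tissues Uqcrh (-0.11), Cox6a1 (-0.084) and Cox7a1 (-0.030). In kidney, library totals gave Cox5a 0.013, Atp5g1 0.13, Sdha 0.10, Cox6a1 0.093, Cox7a2 0.0022, Cox8a 0.087 and Atp5a1 0.024, the Y-linked covariate gave Cox5a 0.021, Atp5g1 0.15, Cox6a1 0.11 and Cox8a 0.11, and Atp5g1 was 0.0035 without the filter and 0.025 with at least 10 counts. Between tissues Cox6a1 was -0.048 with at least 10 counts, and vehicle Cox4i2 was -0.18 with library totals. Leaving out single mice turned the sign in marrow for Cox4i1 (-0.0048 to 0.19), Cox6a1 (-0.11 to 0.058), Cox7a2 (-0.028 to 0.17), Ndufa4 (-0.046 to 0.24), Ndufaf1 (-0.14 to 0.25), Ndufs1 (-0.073 to 0.11) and Ndufv1 (-0.12 to 0.099), in kidney for Atp5g1 (-0.069 to 0.087), Cox6a1 (-0.11 to 0.059) and Cox8a (-0.12 to 0.045), and between tissues for Cox6a1 (-0.046 to 0.16) and Uqcrh (-0.0080 to 0.24).

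Mice with the same number did not deviate together (correlations of -0.154 to 0.228), so the numbers are not shown to pair them. With the replicate block 16 members were higher and 0 lower in marrow, 26 lower and 4 higher in kidney, and 49 differences between tissues were positive and 1 negative.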
